A study of Mus musculus with 25 samples.

Results

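The CD68 segments of peri-injured lung were compared with those of healthy lung in 7 of the 24 tissue segments of the series, placed in their groups by their labels. Peri-injured regions 6, 9, 10 and 12 lay in the lung of 1 mouse, and healthy regions 1, 3 and 13 in the lung of 1 control mouse. From every region, digital spatial profiling collected the probe barcodes of CD45+CD68+ cells and, separately, those of the DNA+CD45- cells, here called the non-immune segment. The non-immune segments of the same 7 regions and the CD68 segments of 5 injured, remodelled regions are given beside the CD68 segments only where they bear on the comparison.

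Both mice were male and carried the SP-C I73T mutation, a missense change in surfactant protein C, which alveolar type 2 cells make, that is linked to pulmonary fibrosis. In these homozygous mice, tamoxifen activates an Flp recombinase placed in the Rosa26 locus, and the recombinase removes a neomycin cassette from the surfactant protein C gene, so that mutant protein is made. The peri-injured regions came from the mouse killed on day 14 after tamoxifen, given by gavage at 175 mg/kg according to the labels. The study's methods instead describe repeated gavages some days apart, each of a smaller amount, that do not add up to this dose. The control mouse was not induced (day 0), is called untreated in its labels and oil treated in the description of the series, and carried the same alleles. Since each class of region came from 1 mouse, region class and mouse cannot be told apart, the regions are technical replicates, and p-values over regions, which are all that is given here, say nothing of the spread between animals and are too small for it.

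CD68 is a glycoprotein of lysosomes and endosomes that marks macrophages and monocytes. The lung holds alveolar macrophages, which clear surfactant and particles from the air spaces, and interstitial macrophages in the walls, and after injury monocytes enter and become macrophages as well. A CD45+CD68+ segment can hold all of these, and in a tissue section it also collects RNA of the cells that lie above, below and beside it. Fewer cells of a type and less RNA per cell cannot be told apart in such a segment. The probes are known here by their barcode identifiers alone, so that neither the Cd68 transcript nor any other marker could be looked up. The cell content of the segments was thus not checked. The probe lists described further on were drawn by the same labels and show only whether the contrast of the compartments recurs.

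The 4 peri-injured CD68 segments were unequal in depth. After removal of duplicates, regions 6 and 10 held 93567 and 89506 counts, whereas regions 12 and 9 held 33021 and 21955. The healthy segments lay between these pairs, with 43633, 56172 and 35909 counts for regions 1, 3 and 13. Regions 6 and 10 were the areas close to the injury (proximal) and regions 9 and 12 those farther away (distal), so that depth and placement move together. The 7 measures of a segment were compared by an exact two-sided permutation test, which for 4 against 3 segments cannot give a p below 0.0571, so that none could pass a threshold of 0.05. Counts per area were 9.61 ± 2.06 (SD, n = 4) beside the injury against 7.36 ± 1.52 (SD, n = 3) in healthy lung (exact permutation p = 0.229), in a unit of area that the authors' worksheet does not name. Duplicates made up 94.9% ± 1.02 (SD, n = 4) of the aligned reads in peri-injured segments and 93.5% ± 2.81 (SD, n = 3) in healthy ones. The share of counts at the level of the 2018 least abundant probes, a stand-in for background, averaged 29.4% ± 3.51 (SD, n = 4) for peri-injured segments, and for healthy ones 33.0% ± 4.37 (SD, n = 3) (exact permutation p = 0.343). Within the peri-injured class it was 34.6% in region 9 and between 27.4% and 28.2% in the other 3 regions.

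To find out which probes differed in the CD68 segments beside the injury, the 6000 probes with the highest mean share in CD68 segments were tested. Of them, 91 (1.52%) had a Benjamini-Hochberg adjusted p under 0.05 in the quasi-likelihood test of edgeR. Beside the injury 74 (1.23%) were higher and 17 (0.283%) were lower. The higher probes changed by a median of 2.25 on the log2 scale (range 1.30 to 6.10), with a median standard error of 0.48. For the lower probes the median was -2.91, with a median standard error of 0.67. The median over all 6000 probes was 0.04. In the alternative that scales by the total count alone, the split was 66 higher and 30 lower, and the median over all probes moved to -0.17. With edgeR's own filter, which kept 1004 probes, the split was 67 higher and 65 lower, so that the excess of higher probes depended on the filter. Without healthy region 1 the test called 33 probes and without healthy region 13 it called 47.

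The probe with the largest rise among those that did not overlap and were called whichever segment was left out was RTS0081477. Its normalized count, which is the count scaled to a common 75th percentile over the 12 CD68 segments, was 299.3, 195, 455 and 69.5 in peri-injured regions 6, 9, 10 and 12. In healthy regions 1, 3 and 13 it was 2.42, 4.03 and 4.53, from 2, 4 and 3 raw counts. Since a kept probe had a median of 3 raw counts, the 75th percentile is a small number of counts, and the scaling is coarse in shallow segments. The lowest peri-injured segment stood far above the highest healthy one, but the lack of overlap itself was a condition of the choice. The log2 fold change was 6.10 (SE 0.79, adjusted p = 2.25e-06 by edgeR). An exact permutation test gave the smallest p that 4 against 3 allows, 0.0571, which the choice of a probe without overlap had fixed in advance. Its level in the 5 injured CD68 segments ran from 11.1 over a median of 22.1 to 236, above every healthy segment and mostly below the peri-injured ones. In non-immune segments, whose values were scaled separately, it measured 163, 23.4, 871 and 36.3 in regions 6, 9, 10 and 12, against 3.45 to 13.1 in healthy lung. It was called there too, with a log2 fold change of 5.02 (SE 1.14, adjusted p = 0.0109 by edgeR). A difference between the compartments in this change was not detectable (difference 1.16, SE 1.82, adjusted p = 0.922 by edgeR).

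The next probe by size, RTS0066800, had normalized counts of 81.9, 54.4, 76.5 and 25.7 in peri-injured regions 6, 9, 10 and 12. Healthy regions 1, 3 and 13 held 1.21, 6.04 and 0, and in the last of these the absence of a count allows a normalized value of up to 4.53. Again no peri-injured segment reached down to the healthy range, as the rule for naming probes required. The log2 fold change was 4.41 (SE 0.62, adjusted p = 1.26e-05 by edgeR), and 6.28 without healthy region 3, which held 6 of the 7 healthy counts. This probe also rose in the non-immune segments, by 3.19 on the log2 scale (SE 0.51, adjusted p = 0.000357 by edgeR). Both probes were lowest in region 12 among the peri-injured CD68 segments.

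Only 2 of the 17 lower probes were called whichever segment was left out. The more abundant was RTS0076368, with normalized counts of 12.1, 14.1, 2.68 and 9.06 in peri-injured regions 6, 9, 10 and 12, against 120, 69.5 and 103 in healthy regions 1, 3 and 13. The groups were far apart, and the log2 fold change was -3.44 (SE 0.40, adjusted p = 1.54e-07 by edgeR). The 5 injured CD68 segments held between 6.79 and 18.1, which spans most of the peri-injured values. In the non-immune segments the probe measured 14.2 to 124 in peri-injured and 925 to 1328 in healthy regions, and its log2 fold change there was -3.93 (SE 0.48, adjusted p = 1.94e-05 by edgeR). It belonged to the probes that were higher in non-immune than in CD68 segments.

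RTS0068472 was a sparse probe, with raw counts of 3, 0, 0 and 0 in peri-injured regions 6, 9, 10 and 12 and of 10, 13 and 2 in healthy regions 1, 3 and 13. The groups were apart only after scaling, with 2.01 normalized counts in region 6 and 3.02 in healthy region 13. The absence of a count allows up to 6.04 in region 9 and 4.53 in region 12, above healthy region 13. Summed over the segments, its level in peri-injured regions was 0.072 of the healthy level, with an exact 95% interval from 0.0139 to 0.236 that covers counting error only. The fitted log2 fold change was -3.58 (SE 0.70, adjusted p = 0.00175 by edgeR), and after thinning to equal depth it was -2.61 and no longer passed (adjusted p = 0.149). The deeper non-immune segments gave 7.26 to 20.5 normalized counts in peri-injured and 76.2 to 103 in healthy regions, with no overlap and a log2 fold change of -2.68 (SE 0.27, adjusted p = 8.9e-07 by edgeR).

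**Figure D1:**
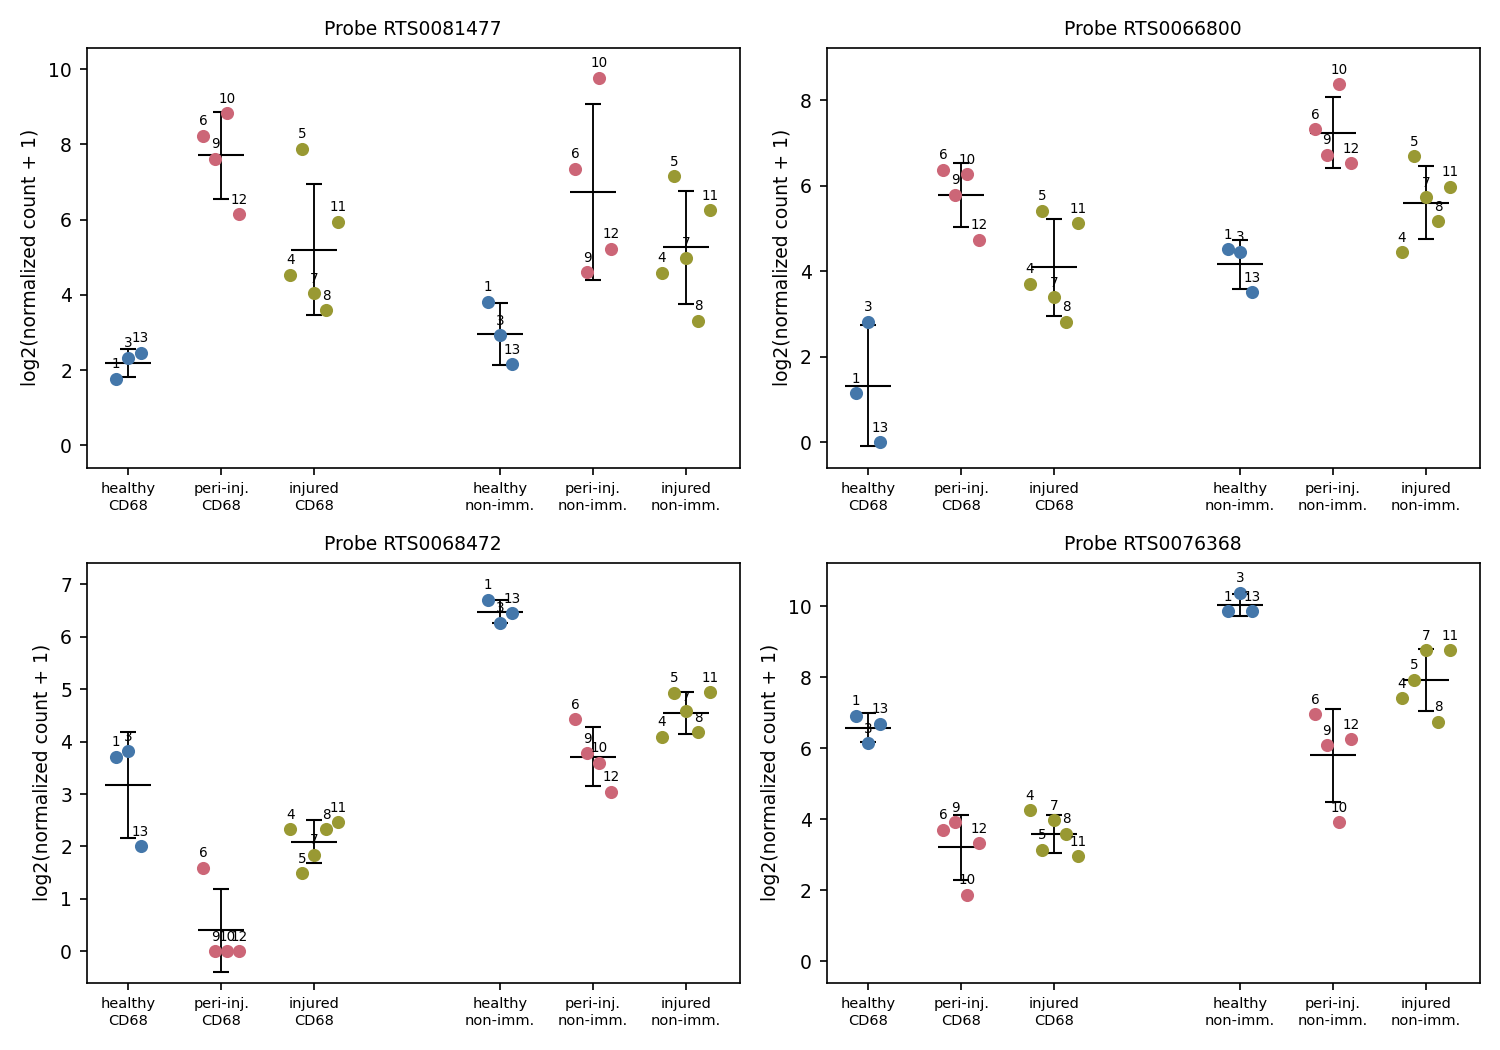
Normalized counts of the 4 named probes on the scale log2(normalized count + 1), in healthy, peri-injured and injured segments of the CD68 compartment (left) and the non-immune compartment (right, scaled separately). Each point is a segment with its region number, and the bars give the mean and SD. RTS0081477 runs from 69.5 to 455 in the peri-injured CD68 segments and from 2.42 to 4.53 in the healthy ones.

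The higher probes were mostly abundant ones. Among the 1000 most abundant probes lay 66 of the 74 higher and 9 of the 17 lower ones. The median log2 fold change in this stratum was 0.42, whereas it was 0.11 in the next 1000 probes and between -0.09 and 0.00 in the remaining 4 strata. Under trimmed mean of M-values (TMM) normalization the median of the 1000 most abundant probes was 0.33 and that of the others -0.12. A kept probe had a median of 3 raw counts in peri-injured and of 3 in healthy CD68 segments. At this depth no probe with a log2 fold change smaller than 1.30 in size was called.

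**Figure D2:**
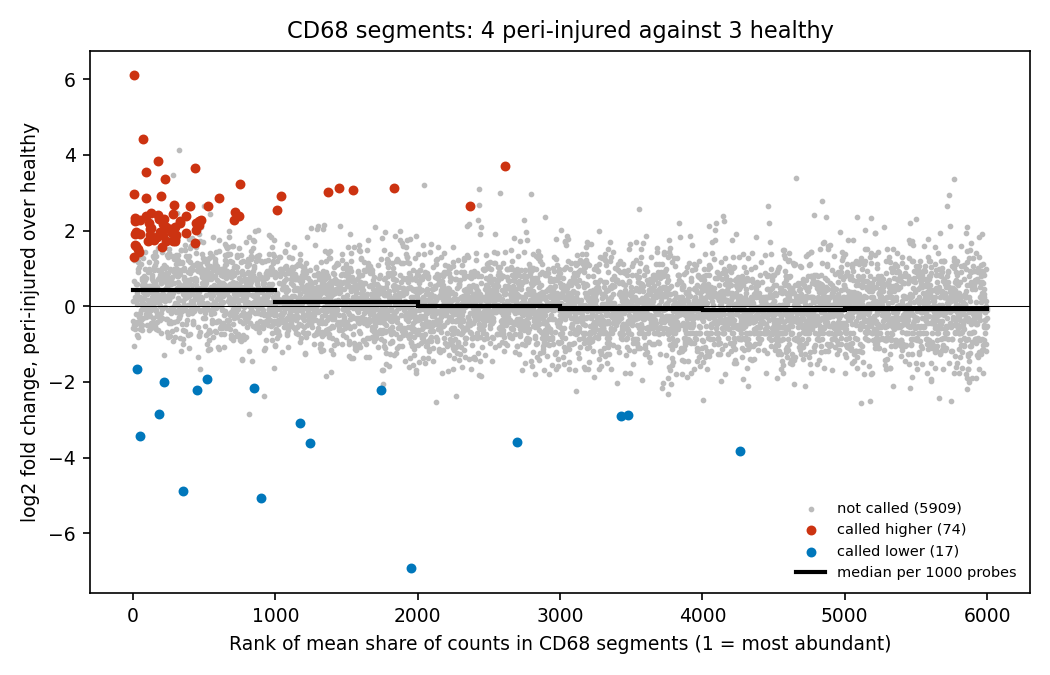
The log2 fold change of each of the 6000 tested probes, peri-injured over healthy CD68 segments, against the rank of its mean share of counts, with called probes in colour and the median of each stratum of 1000 probes as a black line. Of the 74 higher probes, 66 lie among the first 1000 ranks, and the peri-injured segments themselves enter the rank. The lowest point has no count in any peri-injured segment, so that its fitted value is no bound.

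Higher and lower probes differed in how evenly the segments carried them. The lowest peri-injured segment lay above the highest healthy one in 64 of the 74 higher probes, and the reverse held in 10 of the 17 lower ones. Over all 6000 tested probes, 264 (4.4%) did not overlap in the upward and 235 (3.92%) in the downward direction. Since the same segments made the calls, these counts are a description. A single segment held at least 80% of the counts of its group in 2 higher probes, once region 6 and once region 10. The same was true of 6 lower probes, of which 4 had their counts in healthy region 13 and 2 in healthy region 1. One of the latter had 35 healthy counts, 97.1% of them in region 1, and none in the peri-injured segments, which makes it at least 19.4-fold lower against a floor of 3 counts over the group. With this probe at its bound, the lower probes ranged from -5.06 to -1.65 on the log2 scale. Of the higher probes, 7 rested on at most 3 healthy counts, and of the lower ones 5 rested on at most 3 peri-injured counts.

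**Figure D3:**
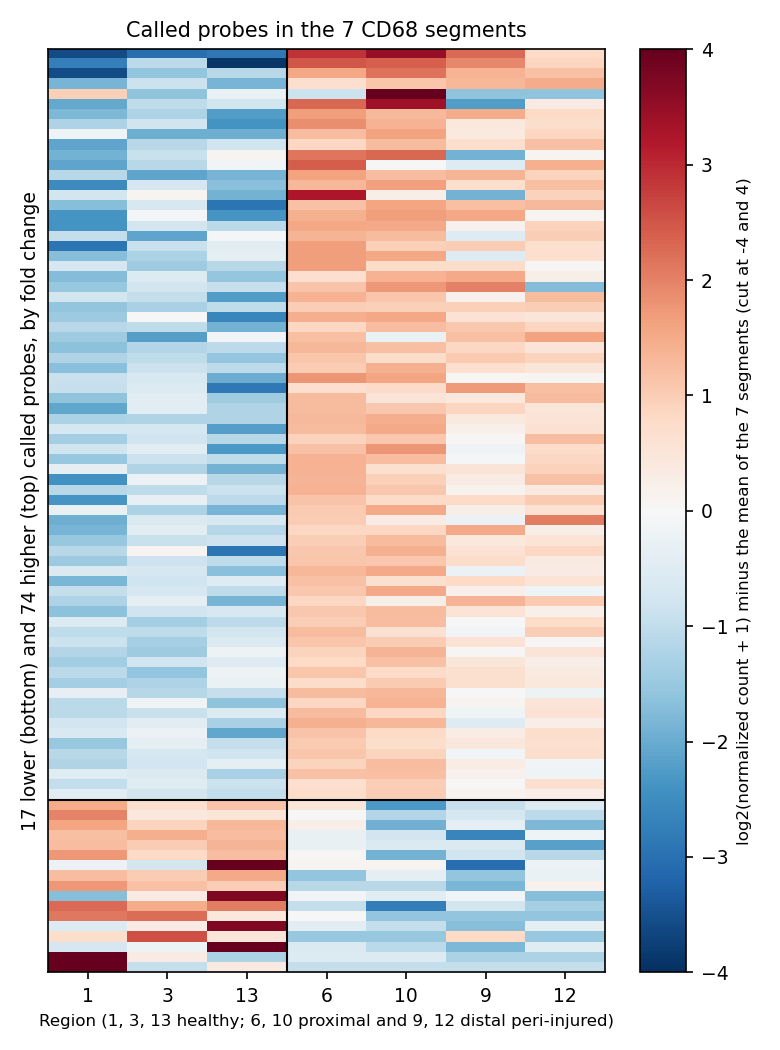
The 91 called probes (rows, ordered by fold change) in the 3 healthy and 4 peri-injured CD68 segments (columns), as log2(normalized count + 1) minus the mean of the 7 segments, with colours cut at -4 and 4. The rows were chosen by this contrast, so that the colour change between the classes is no finding. Single dark cells in the lower block mark the probes whose counts lie in region 1 or region 13.

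Over all 6000 probes, the division of the 7 segments by class was tested on their distances. The pseudo-F of Euclidean distances on log2(normalized count + 1) was 1.38, class accounted for 21.6% of the variance, and no other of the 35 assignments gave a larger value (exact one-sided permutation p = 0.0286, the smallest it can give). Without healthy region 1, 3 or 13 the exact permutation p was 0.2, 0.133 or 0.267, above the 0.0667 that 4 against 2 segments allow, so that other assignments then gave as large a value. Pairs across the classes lay 74.5 to 108.8 apart, pairs of healthy segments 77.3 to 88.3, and pairs of peri-injured segments 58.9 to 105.6. These ranges overlap, so that the classes did not form separate groups. Healthy region 3 lay closer to peri-injured regions 6 (74.59) and 10 (74.46) than to healthy regions 1 (77.35) and 13 (83.5). The closest pair of all was proximal regions 6 and 10, the 2 deepest segments, and every distance to region 9, the shallowest, was at least 98.98. Within a class, the counts of each pair of segments differed by 1.51 to 4 times the chi-square that sampling alone gives, so that none was counted as a repeat of another.

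To see whether the calls lay in probes that favour the CD68 or the non-immune segments, lists of probes associated with a compartment were drawn from the 5 injured regions. These are on neither side of the contrast, but their CD68 segments share its filter, scaling and estimate of spread, and they come from the same mouse as the peri-injured ones. There, 268 of 6000 probes (4.47%) differed between the paired segments, of which 78 were higher in CD68 and 190 higher in non-immune segments. In the peri-injured regions, 64 of the 73 CD68-associated probes tested were also called higher in CD68 than in non-immune segments. There, 11.1% of all 6000 probes differed in either direction, 265 of them higher in CD68 segments. In the healthy regions the same was true of 18 of 62, where 1.33% of all 6000 probes differed, 32 of them higher in CD68 segments. No listed CD68-associated probe was called in the opposite direction in either class.

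In the peri-injured CD68 segments, 28 of the 78 CD68-associated probes (35.9%) rose, none fell and 50 did not pass the test, whereas 1.23% of all probes rose. Their median log2 fold change was 1.24, and 1.22 with the probe that had no count in a group set to its bound, against 0.04 over all probes. Under total-count scaling the median was 1.06. Among the 1000 most abundant probes, 28 of 74 listed ones (37.8%) and 33 of 842 probes in neither list (3.92%) were higher. Without healthy region 1, 14 of the listed probes were called higher.

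The listed probes took a larger part of the counts in every peri-injured CD68 segment than in any healthy one. Their share of the counts was 5.07%, 4.71%, 5.60% and 3.74% in peri-injured regions 6, 9, 10 and 12. In healthy regions 1, 3 and 13 it was 1.49%, 1.63% and 1.30%. The means were 4.78% ± 0.783 (SD, n = 4) and 1.47% ± 0.164 (SD, n = 3), a ratio of 3.25, with an exact permutation p of 0.0571, the smallest possible, which is 0.4 after adjustment over the 7 measures. In the non-immune segments of the same regions they held 0.629% to 1.11% in peri-injured and 0.594% to 0.651% in healthy lung, and these ranges overlapped. The share in the CD68 segment was 5.03 to 7.27 times that in the non-immune segment of the same peri-injured region, and 2.18 to 2.58 times in healthy regions.

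The count depended on where the list was drawn. Taken from the 3 healthy regions instead, an alternative added once the data had been seen, the list of CD68-associated probes had 32 members, of which 18 were also in the first list. This list takes its members from healthy CD68 segments that enter the comparison, as the first takes them from the injured mouse. Of the 32, 6 were higher, 7 were lower and the median log2 fold change was 0.64. Over all probes tested, 1.23% were higher, 0.283% were lower and the median was 0.04. The 18 shared probes held the 6 that rose, with none lower and a median of 1.19. The 14 probes on the healthy list alone held the 7 that fell, and in 6 of these a single healthy segment held at least 80% of the healthy counts. Nevertheless the summed share of the healthy list was 2.12% to 2.75% in peri-injured CD68 segments and 1.24% to 1.46% in healthy ones, without overlap.

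Probes associated with the non-immune compartment were called in both directions. Of 168 tested in CD68 segments, 5 (2.98%) were higher and 6 (3.57%) lower, against 1.23% and 0.283% over all probes, and the median log2 fold change was 0.01 (-0.20 under total-count scaling, and -0.61 with edgeR's own filter, which kept 1004 probes). The 5 higher calls became 1 without healthy region 1, 3 without healthy region 13 and 2 after thinning to equal depth. Their summed share was 4.20%, 3.79%, 2.95% and 4.20% in peri-injured regions 6, 9, 10 and 12, and 4.02%, 3.16% and 3.92% in healthy regions 1, 3 and 13. These ranges overlap, with means of 3.78% ± 0.591 (SD, n = 4) and 3.70% ± 0.468 (SD, n = 3) and an exact permutation p of 0.857. In the injured CD68 segments it was between 1.51% and 2.08%, but the list was chosen for low values in these same segments. The list thus held 6 of the 17 lower and 5 of the 74 higher calls of the CD68 comparison.

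**Figure D4:**
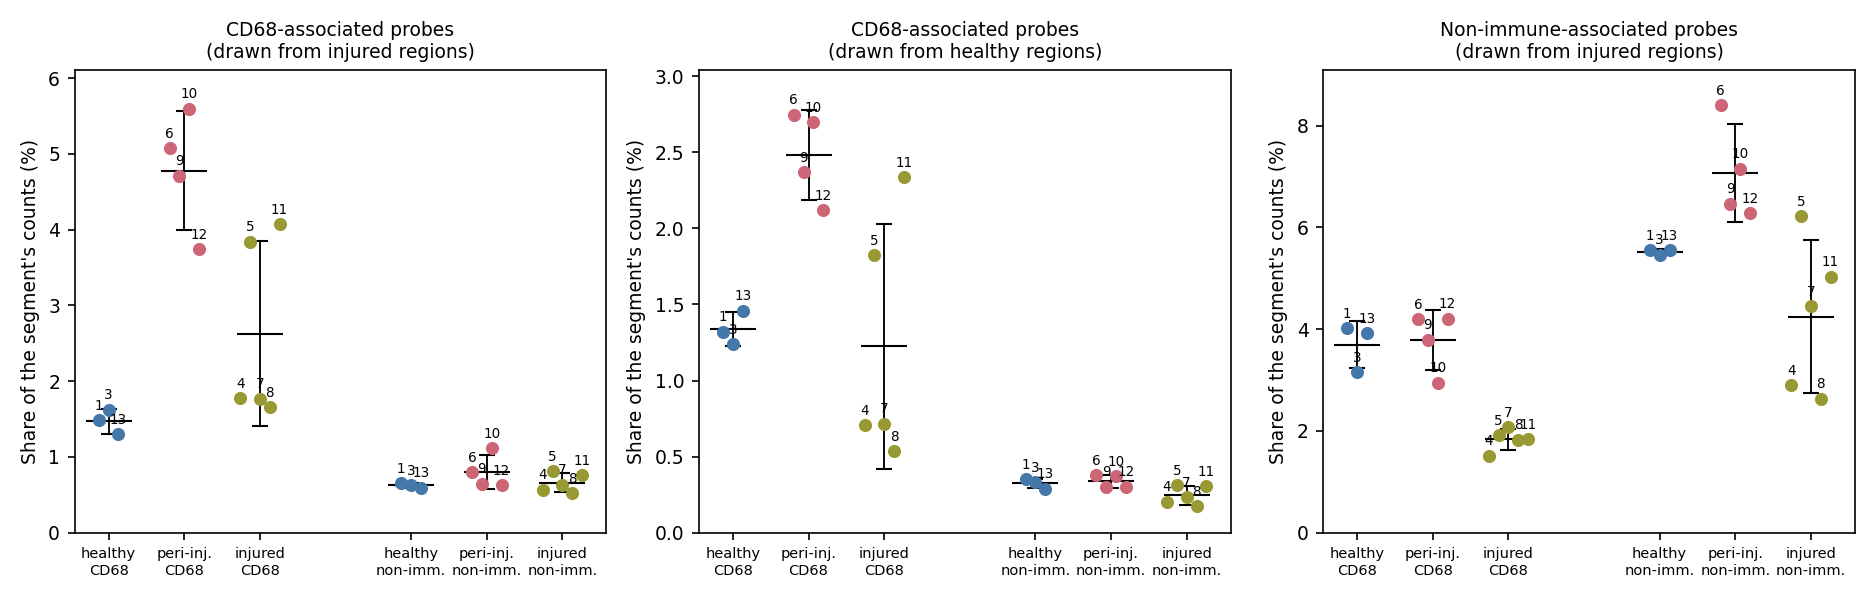
Share of each segment's counts in CD68-associated probes drawn from injured regions (left), CD68-associated probes drawn from healthy regions (middle) and non-immune-associated probes (right), by compartment and class. Points are segments with their region number, bars the mean and SD. In the left panel the peri-injured CD68 segments lie between 3.74% and 5.60% and the healthy ones between 1.30% and 1.63%.

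The same contrast was then taken in the non-immune segments, to see which calls the neighbouring cells shared. There, 161 probes (2.68%) were higher and 110 (1.83%) lower by edgeR at an adjusted p under 0.05, and without healthy region 1, 3 or 13 the test called 131, 136 or 168 probes in place of 271. Of the 74 probes higher in CD68 segments, 52 were tested in the non-immune segments, and 19 were called higher, none lower and 33 in neither direction. Their median log2 fold change was 0.75 there and 2.06 in the CD68 segments, against -0.003 and 0.04 over all probes. They were chosen by their change in CD68 segments, which enlarges the median there, so that the sizes of the 2 medians cannot be compared. Of the 17 lower probes, 10 were tested and 8 were called lower there too, with medians of -2.37 in the non-immune and -2.21 in the CD68 segments. The lower probes were chosen in the CD68 segments in the same way. Whether the shares of 19 in 52 and 8 in 10 differ was not tested.

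**Figure D5:**
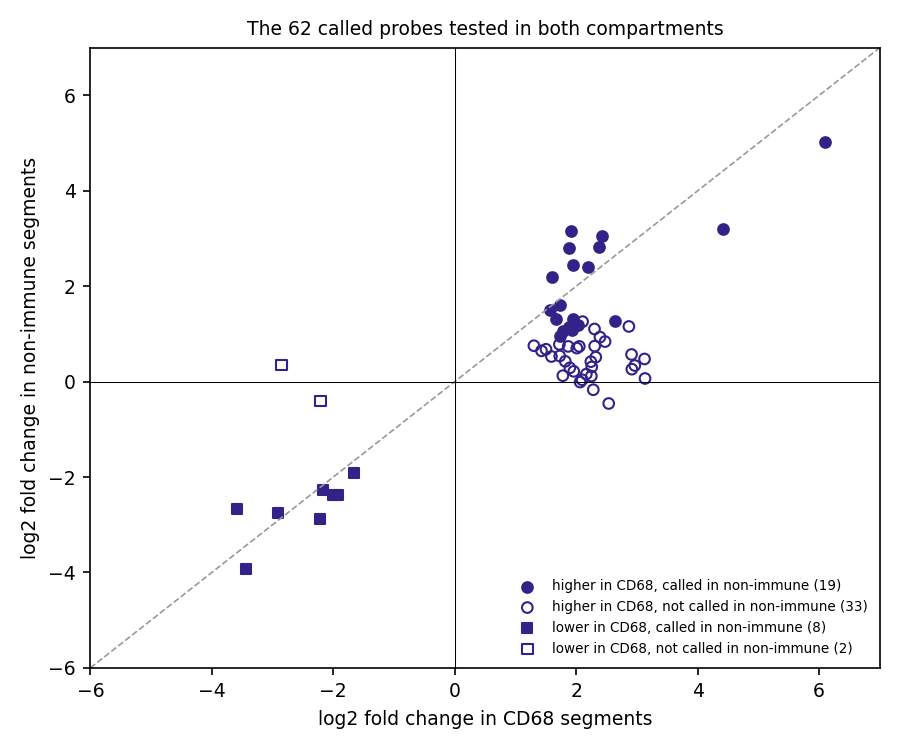
Log2 fold changes, peri-injured over healthy, in CD68 segments (x axis) and non-immune segments (y axis) of the 62 called probes tested in both, with filled symbols for those also called in non-immune segments. The dashed line marks equal change, and the probes were chosen by their change on the x axis. Of the 52 higher probes 19 are filled, and of the 10 lower ones 8.

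Whether a probe changed differently in the 2 compartments was tested directly by the interaction of compartment and class. Without the region in the model, 9 probes of 6000 (0.15%) differed by edgeR at an adjusted p under 0.05, 8 with a more positive and 1 with a more negative log2 change in CD68 segments. Both segments of a region were cut from 1 spot of tissue, and with the region as a block, which uses this pairing, 32 probes differed, 30 with a more positive and 2 with a more negative change in CD68 segments. All 9 were among the 32. Of the 32, 19 were among the 74 higher probes of the CD68 comparison, which are 1.23% of the 6000 tested there. The change that chose these 74 is part of the difference tested here, so that this overlap is partly built in. The list of CD68-associated probes, 78 of the 6000 tested in injured regions, held 15 of the 32. The median difference over the 74 higher probes, which were chosen for a rise in CD68 segments, was 1.70 on the log2 scale, against 0.07 over all probes tested. The count without the block fell to 1 without region 6, healthy region 1 or healthy region 13 and to 3 without healthy region 3, and it rose to 18 without region 9.

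Proximity to the injury was examined by setting the proximal regions 6 and 10 and the distal regions 9 and 12 each against the same 3 healthy segments. Of 6000 probes, 138 (2.3%) differed between proximal and healthy CD68 segments, 124 of them higher, and 22 (0.367%) differed between distal and healthy segments, 21 of them higher, by edgeR at an adjusted p under 0.05. Depth lay beside this contrast, and once all segments were thinned to 21955 counts the test called 30 probes for proximal and 28 for distal regions. Over the 74 higher probes, which were chosen in a fit that holds these segments, the median log2 fold change was 2.41 in proximal and 1.75 in distal regions, against 0.10 and -0.13 over all probes. Of the 74, 72 were called in proximal and 14 in distal regions. The CD68-associated probes had medians of 1.52 (1.49 with a probe at its bound) and 0.79, with 35 and 10 called higher. The counts moved with single segments. For proximal regions the test called 63 probes without region 10, 91 without region 6, 67 without healthy region 1 and 90 without healthy region 13. For distal regions it called 6 without region 9, 10 without region 12 and 14 without healthy region 1.

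Set against each other, proximal and distal CD68 segments differed in 9 probes (0.15%), 4 higher and 5 lower in proximal regions, by edgeR at an adjusted p under 0.05. In 8 of the 9 a single segment held at least 80% of the peri-injured counts. DESeq2 called 0 probes, with 148 at an unadjusted p under 0.05, against 440 for edgeR. Without region 6 the split was 7 higher and 0 lower, without region 9 it was 0 and 4, without region 10 it was 5 and 1, and without region 12 it was 1 and 4, so that the direction of the calls rested on single segments. For RTS0081477 the proximal level exceeded the distal level by 1.52 on the log2 scale (SE 0.68, adjusted p = 0.669 by edgeR), so that a difference was not detectable with 2 segments in each arm.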

How the data were processed

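The deposited count files hold raw counts per probe of the GeoMx Mouse Whole Transcriptome Atlas (v1.0), made by the authors from formalin-fixed paraffin sections by the GeoMx NGS Pipeline (2.3.4 per the file headers), which aligns reads to barcodes and removes duplicates by unique molecular identifier. Probes that a file does not list were read as 0. The submitters' processing notes name mm10. Segment areas came from the authors' deposited worksheet. The reaction without template held 1 count. No source used here pairs probes with gene symbols, so that gene names, pathways, cell markers and sequences were not analysed here.

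Samples were grouped by their labels. Proximal and distal placement came from the study's text. The members and lists were chosen with earlier results of these data known. The 6000 probes with the highest mean share in the segments of a fit were kept, in place of the authors' filter on the limit of quantitation, and tested with edgeR 4.0.16 in R 4.3.3 (quasi-likelihood, upper-quartile normalization, 1 fit over the 12 CD68 segments, Benjamini-Hochberg adjustment). The standard error is the log2 fold change divided by the square root of F. Normalized counts are scaled to the geometric mean depth of a compartment, so that levels of the compartments are not compared. Named probes are the 2 highest and 2 lowest fold changes among called probes without overlap between the groups that were called in all 7 fits with 1 segment left out. Region numbers pair the compartments because both segments come from 1 place. The correlation of their deviations from the means of the classes ran from -0.001 to 0.174 (median 0.079, 12 pairs). For the background share, the mean of the 2018 probes lowest in the opposite compartment was multiplied by 20175, the number of probes, and divided by the total. Exact tests are two-sided over 35 assignments, except the one-sided pseudo-F. Alternatives were TMM, total-count scaling, DESeq2 1.42.0, limma 3.58.1 on log2 values with a pseudocount of 1, other filters, thinning to the shallowest segment and leaving segments out. The tests were checked on simulated counts. Plots were drawn with matplotlib 3.10.9.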

Additional observations from a re-analysis of the deposited data

Results flagged for a closer look

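Among 26 groups of 4 or 5 segments examined for a value that stands apart, for which chance alone flags about 1 in 20, 4 were marked. Region 9 stood apart among the peri-injured CD68 segments in the share of counts at the level of the least abundant probes, 34.6% against 27.4% to 28.2%, with a gap of 0.886 of the range. It was also the shallowest, with 21955 counts. For RTS0068472, region 6 held 3 counts and the other peri-injured CD68 segments none, which makes the gap 1 of the range. For RTS0081477, region 10 stood apart among the peri-injured non-immune segments, with 871 normalized counts against 23.4 to 163 (gap 0.835 of the range). The same probe was high in injured CD68 region 5, with 236 against 11.1 to 60.4 in the other injured CD68 segments (gap 0.78 of the range).

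The change from healthy to peri-injured lung differed between the compartments in 9 probes by edgeR's interaction test, and in 32 with the region as a block. Proximal and distal peri-injured CD68 segments differed in 9 probes by edgeR, of which 8 had at least 80% of the peri-injured counts in 1 segment.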

How the results depend on the processing

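The count of called probes in the CD68 comparison lay within 1.5 times of 91 under TMM (87), total-count scaling (96), DESeq2 (67), limma (74), 10000 probes (108), the 7 segments alone (87), without both distal regions (136), and edgeR's own filter, which kept 1004 probes and called 67 higher and 65 lower (132). It was 165 without a filter, 42 after thinning to equal depth (29 higher, 13 lower; 34 shared with the 91) and 26 without both proximal regions, and 33 to 124 with 1 segment left out. The non-immune comparison called 149 probes when thinned and 131 to 266 with 1 region left out. The compartment difference gave 16 probes under DESeq2, 18 without a filter, 2 when thinned, 32 with the region block, which uses the pairing, and 1 to 18 with 1 region left out. Proximal against healthy gave 62 under DESeq2, 30 when thinned and 63 to 108 with 1 segment left out. Distal against healthy gave 57 without a filter and 6 to 19 with 1 left out, and proximal against distal gave 0 under DESeq2 and 4 to 7 with 1 left out, where an arm of 1 segment was assumed to vary like the others. The cause of these shifts was not tested beyond the fewer counts or segments that an alternative holds.

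The pseudo-F was 1.19 to 1.56 with 1 segment left out (exact permutation p from 0.1 to 0.267), and 1.25 to 1.40 under the other settings. Without a peri-injured segment p was 0.1, the smallest that 3 against 3 allow, and without a healthy one it was 0.133 to 0.267, where 4 against 2 allow 0.0667. The peri-injured minus healthy difference in probes with a count was -582 and ranged from -1613 to 822 with 1 segment left out, changing sign without region 9 (822), region 12 (20.7) or healthy region 3 (148). That in the share of non-immune-associated probes was 0.0865 percentage points, from -0.182 to 0.366, with a negative sign without region 6 (-0.0503), region 12 (-0.0532) or healthy region 3 (-0.182). The other 5 measures kept their direction, and that of CD68-associated probes stayed between 3.04 and 3.66 percentage points. The 4 named probes kept direction and call in 69 of the 70 settings that gave an adjusted p. These settings include the fits with 1 segment left out, in which a call was a condition of naming the probe. Only the other settings could have failed. The median of the CD68-associated probes ran from 0.79 without the proximal regions to 1.52 without the distal ones, and was 0.64 for the list drawn from healthy regions.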

Other observations

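The injured CD68 segments, from the same mouse as the peri-injured ones, were uneven in the CD68-associated probes, which were chosen in these 5 segments. They held 3.84% of the counts in region 5 and 4.07% in region 11, within or near the peri-injured range of 3.74% to 5.60%, and 1.78% in region 4, 1.77% in region 7 and 1.66% in region 8, near the healthy range of 1.30% to 1.63%. The list drawn from healthy regions, which these segments had no part in choosing, gave 1.82% in region 5 and 2.34% in region 11 against 0.705%, 0.718% and 0.536% in regions 4, 7 and 8. For this list the healthy CD68 segments, in which it was chosen, held 1.24% to 1.46%, so that regions 4, 7 and 8 lay below the healthy range. RTS0081477 had 236 and 60.4 normalized counts in regions 5 and 11 against 22.1, 15.5 and 11.1 in regions 4, 7 and 8, and RTS0066800 had 41.7 and 34.0 against 12.1, 9.49 and 6.04. Region 5 had a total of 119493 counts, region 11 had 84152 and the others had between 71786 and 74139. These are values of single segments, with no group or test.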
